A study of Oryctolagus cuniculus with 18 samples.

Results

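Of the 89 assays on the rabbit wound healing PCR array, 3 read genes of the contractile apparatus of muscle, namely ACTA2, ACTC1 and LOC100009332. They were chosen by symbol. ACTA2 encodes smooth muscle alpha actin, ACTC1 encodes cardiac alpha actin, and LOC100009332 is listed for transgelin (TAGLN, also called SM22 alpha) and is called TAGLN here. The array carries 3 of 7 smooth muscle markers that were looked for, and these are the same 3 genes, so no other smooth muscle marker was at hand to check the label. Each gene had 1 well per rabbit.

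RNA came from the lower abdominal aorta, just above the iliac bifurcation, of 18 male New Zealand White rabbits that were 11 weeks old when the study began. The 9 control rabbits ate chow and were labelled healthy. The 9 atherosclerotic rabbits had the endothelium of the thoracic and abdominal aorta stripped with a balloon catheter in operations 3 weeks apart, and were given feed with 0.30% cholesterol over 8 weeks, then with 0.15% over 12 more weeks. Denudation and diet always went together, so their parts in any difference cannot be told apart. The study followed 10 control and 11 atherosclerotic rabbits. Rabbits are named below by their label numbers, odd for controls and even for atherosclerotic rabbits.

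Smooth muscle cells make up most of the media of a healthy aorta, and their contraction rests on actin filaments that slide along smooth muscle myosin. Alpha smooth muscle actin is the main actin of these filaments, transgelin is a small protein that binds and bundles them, and cardiac alpha actin is the closely related actin of heart muscle, which some smooth muscle also makes. Transcription of these genes is driven by serum response factor with its coactivator myocardin, and in injured or atherosclerotic arteries smooth muscle cells are known to leave this contractile state for one of migration, division and matrix production.

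Quantitative PCR gives a threshold cycle (Ct), the number of cycles a well needs to reach a set fluorescence, so an early Ct means much transcript. Because ACTA2 is one of the 5 genes the authors used as references, the level of every gene was taken here as the mean Ct of ACTB, GAPDH and LOC100346936 minus the Ct of the gene. This level is on a log2 scale, where 1 unit is a doubling. Wells later than 35 cycles, or without a Ct, were held at 35, as in the deposited ratios, and a level from such a well is an upper limit on expression. Primer efficiencies are not given in the sources used here, so the level of one gene was not ranked against that of another, and only the change between rabbits was compared.

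All 3 contractile genes were lower in the atherosclerotic aorta. TAGLN fell 9.96-fold and ACTA2 fell 9.46-fold (n = 9 and 9). ACTC1 was barely detectable in either group, and its fall was 2.55-fold with late wells held at 35 cycles and 6.90-fold with Ct as deposited. With wells held at 35, TAGLN and ACTA2 had the most negative differences of the 86 assays tested. PLG, plasminogen, came next at -3.20, but only 2 of its 9 atherosclerotic wells were below 35 cycles, and with Ct as deposited it was the lowest, at -5.34. ACTC1 ranked 16 from the lowest with the ceiling and 4 without it. Each passed an adjusted p of 0.05 in limma, where 27.9% of all assays tested were lower, 33.7% were higher and 61.6% thus differed in either direction. In pieces of whole aortic wall, fewer smooth muscle cells, a larger share of other cells and less RNA per smooth muscle cell cannot be told apart.

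TAGLN levels in the control rabbits were tightly grouped at 4.53, 4.29, 4.27, 4.40, 4.30, 3.89, 4.01, 4.58 and 3.95 for rabbits 1, 3, 7, 9, 11, 13, 15, 19 and 21. In atherosclerotic rabbits 2, 4, 6, 8, 10, 12, 14, 18 and 20 they were 1.80, 0.78, -0.40, 1.77, -0.88, 0.59, 2.33, 0.82 and 1.55. The groups did not overlap, and the highest atherosclerotic value, that of rabbit 14, lay well under the lowest control value, that of rabbit 13. Such a separation, with the atherosclerotic group lower, was found in 8.14% of the assays tested. The group means were 4.25 ± 0.25 (SD, n = 9) in control and 0.93 ± 1.06 (SD, n = 9) in atherosclerotic rabbits. TAGLN thus fell by 3.32 on the log2 scale (SE 0.35, 95% confidence interval -4.06 to -2.58, limma adjusted p = 1.14e-07). The exact two-sided permutation test gave p = 4.11e-05, the smallest that 9 rabbits against 9 allow.

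ACTA2 levels in the same control rabbits were 4.27, 3.95, 3.88, 4.0, 4.25, 4.21, 3.97, 4.66 and 3.57. In the atherosclerotic rabbits they were 1.46, 0.66, -0.98, 0.77, -1.42, 0.16, 2.02, 0.78 and 4.13. All atherosclerotic rabbits but one lay below every control rabbit, and the exception was rabbit 20, whose 4.13 stood inside the control range. Rabbits 10 and 6 were the lowest for ACTA2 as they were for TAGLN. The group means were 4.08 ± 0.31 (SD, n = 9) and 0.84 ± 1.64 (SD, n = 9), so ACTA2 fell by 3.24 on the log2 scale (SE 0.52, 95% confidence interval -4.33 to -2.15, limma adjusted p = 1.87e-05). The exact two-sided permutation test gave p = 0.000247 for this gene. Without rabbit 20 the difference was -3.65.

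**Figure D1:**
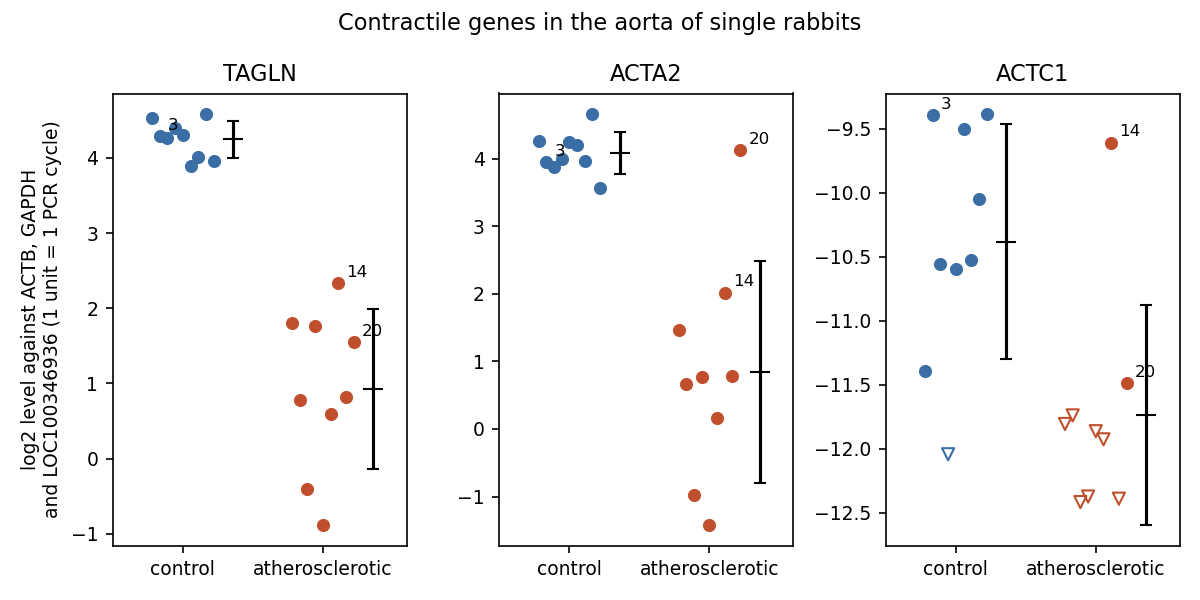
Levels of TAGLN, ACTA2 and ACTC1 (mean Ct of 3 reference genes minus Ct, log2 scale) in each of 9 control and 9 atherosclerotic rabbits, with the group mean and SD. TAGLN separated the groups without overlap, ACTA2 did so apart from rabbit 20 at 4.13, and most atherosclerotic ACTC1 values were at the detection ceiling.

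The fall of both abundant genes was also present before any reference was applied. In atherosclerotic rabbits the raw Ct of TAGLN came 3.03 cycles later (18.70 ± 0.67 against 21.73 ± 1.51, SD, n = 9 each, exact permutation p = 8.23e-05), and that of ACTA2 by 2.95 cycles (18.87 ± 0.77 against 21.82 ± 2.34, SD, n = 9 each, exact permutation p = 0.00288). With late wells held at 35, the raw Ct of ACTC1 came 1.06 cycles later, which did not pass 0.05. It was 33.33 ± 1.03 against 34.40 ± 1.22 (SD, n = 9 each, exact permutation p = 0.0649). The mean Ct of the 3 reference genes differed by -0.29 cycles between the groups (exact permutation p = 0.515, n = 9 each). Control rabbit 3 and atherosclerotic rabbit 20 stood apart in this mean, at 24.73 and 20.38 cycles, where the others of their groups lay between 22.33 and 23.07 and between 22.58 and 23.26. Rabbit 20 had the earliest Ct of any rabbit for ACTA2, 16.25 cycles, and its TAGLN Ct of 18.83 was the only atherosclerotic value within the control range. Leaving out both rabbits, a choice made after seeing the data, gave differences of -3.39 for TAGLN, -3.67 for ACTA2 and -1.26 for ACTC1, all with a limma adjusted p under 0.05.

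ACTC1 was near the limit of detection in the aorta. Its Ct was below 35 in 8 of 9 control rabbits but in only 2 of 9 atherosclerotic rabbits, rabbit 14 at 32.70 and rabbit 20 at 31.87 cycles. Of the other wells, that of rabbit 6 gave no Ct at all and the rest crossed between 35.13 and 37.29 cycles. Levels were -11.39, -9.39, -10.56, -12.04, -10.60, -9.50, -10.52, -10.05 and -9.39 in control rabbits 1 to 21, where rabbit 9 is at the ceiling. In atherosclerotic rabbits 2 to 20 they were -11.81, -11.74, -12.42, -12.37, -11.86, -11.93, -9.61, -12.39 and -11.49. With wells held at 35 the groups overlapped, and 3 atherosclerotic rabbits lay below every control rabbit. Those 3 and the lowest control, rabbit 9, were all at the ceiling, so their order follows the reference level alone. The means of -10.38 ± 0.92 and -11.74 ± 0.86 (SD, n = 9 each) differed by -1.35 (SE 0.40, 95% confidence interval -2.19 to -0.51, limma adjusted p = 0.00596). The exact two-sided permutation test gave p = 0.00782. With Ct values used as deposited and the undetermined well set to 40, the difference was -2.79 (limma adjusted p = 0.00304), and with ACTB as the only reference it was -0.65 (limma adjusted p = 0.195). The primer sequences are not given in the sources used here, and whether the ACTC1 assay also read a part of the related ACTA2 transcript was not tested.

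The reference genes themselves moved between the groups, which sets the precision of each difference. ACTB fell by 1.49 log2 units relative to GAPDH in the atherosclerotic group, with no overlap (exact permutation p = 4.11e-05, n = 9 each). GAPDH was higher relative to LOC100346936 by 0.86 (exact permutation p = 0.00119, n = 9 each). Against ACTB alone the difference of TAGLN was -2.61, and against GAPDH alone it was -4.10. The corresponding differences of ACTA2 were -2.53 and -4.02. These were the ends of the range over 10 reference levels, the deposited 5-gene level included, and TAGLN and ACTA2 passed the threshold under each of them (highest limma adjusted p 8.93e-06 and 0.00104). At the deposited 5-gene level ACTA2, itself a reference there, was set against the other reference genes only. ACTC1 ranged from -2.13 to -0.65 and passed under 9 of the 10. A change of reference moves TAGLN, ACTC1 and nearly all other assays by the same amount. The median difference over all assays was 0.045 with the 3 genes and shifted by 0.71 with ACTB alone and by -0.78 with GAPDH alone. Relative to that median, TAGLN stood at -3.36 and ACTC1 at -1.40 under every reference level.

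**Figure D2:**
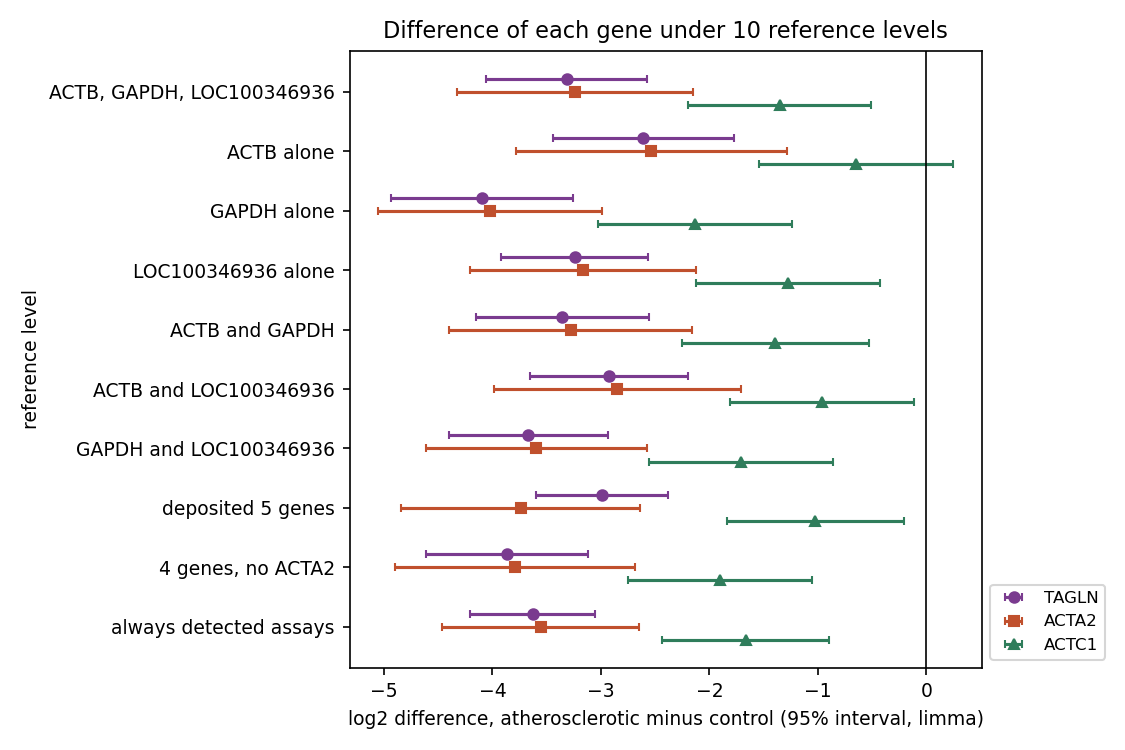
Difference between atherosclerotic and control rabbits (log2, with 95% confidence interval) for TAGLN, ACTA2 and ACTC1 under each of 10 reference levels. At the level of the deposited genes, ACTA2 was set against the other reference genes only. TAGLN and ACTA2 stayed below 0 throughout, from -2.61 to -4.10 and from -2.53 to -4.02, and ACTC1 reached -0.65 with ACTB alone.

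A ratio of 2 genes within a rabbit needs no reference, and it shows how closely the members fell together. The log2 ratio of ACTA2 to TAGLN was -0.16 ± 0.25 (SD, n = 9) in control and -0.09 ± 1.04 (SD, n = 9) in atherosclerotic rabbits. The difference was 0.08 with a limma 95% confidence interval of -0.69 to 0.84 (exact permutation p = 0.964). Control ratios ran from -0.40 to 0.32. In the atherosclerotic group rabbit 20 had 2.58, and the other 8 rabbits lay between -1.0 and -0.04, with 4 of them below every control rabbit. Without rabbit 20 the difference was -0.26 (exact permutation adjusted p = 0.0738). Of the 88 other assays, 97.7% had a higher ratio to TAGLN in the atherosclerotic group with wells held at 35 cycles, and those that did not pass the exact test were ACTA2 and PLG. For ratios to ACTA2, 95.5% were higher, and those that did not pass were TAGLN, PLG, F3 (tissue factor) and TGFB3. TAGLN and ACTA2 had the most negative differences of the assays tested, so these shares follow from that rank. They are not separate support for a joint fall. With Ct as deposited, 4 assays did not pass against TAGLN (ACTA2, ACTC1, FGA and CSF3) and 8 did not pass against ACTA2. The ratios of PLG rest on the ceiling, since without it PLG differed by -2.03 relative to TAGLN (exact permutation adjusted p = 0.0239) and by -2.10 relative to ACTA2 (exact permutation adjusted p = 0.0415).

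ACTC1 changed relative to both of the other genes when its late wells were held at the ceiling. Its log2 ratio to TAGLN was -14.63 ± 1.07 in control and -12.66 ± 0.96 in atherosclerotic rabbits (SD, n = 9 each). This was a difference of 1.96 (limma 95% confidence interval 1.01 to 2.92, exact permutation adjusted p = 0.000814). Its ratio to ACTA2 differed by 1.89 (exact permutation adjusted p = 0.00795, n = 9 each). With no ceiling these differences were 0.53 and 0.46 and neither passed (exact permutation adjusted p = 0.435 and 0.504). Whether ACTC1 fell less than TAGLN and ACTA2 therefore cannot be read from these wells.

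Within the atherosclerotic group rabbits with less TAGLN also had less ACTA2, by a rank correlation that passed correction only with shared reference genes and a linear one that did not pass. Pearson's r was 0.79 (exact permutation p = 0.0108, adjusted p = 0.0646 over 6 relations) and Spearman's rho was 0.87 (exact permutation p = 0.00451, adjusted p = 0.0271), with n = 9. Without the 2 rabbits farthest from the median TAGLN level, 10 and 14, r was 0.69 (exact permutation p = 0.0875). Rabbit 20 lay off the line of the others, and without it r was 0.97 (exact permutation adjusted p = 0.000446, n = 8). Both genes share the same reference wells, which alone can make levels covary. With TAGLN and ACTA2 each set against a different reference gene, r was 0.50 with all 9 rabbits (exact permutation p = 0.174, adjusted p = 0.521) and rho was 0.57 (exact permutation p = 0.121, adjusted p = 0.723), so neither passed. Without rabbit 20, a choice made after seeing the data, r was 0.89 on this scale (exact permutation p = 0.00203, n = 8). In the control group r was 0.60 (exact permutation adjusted p = 0.233, n = 9) and rho was 0.67 (exact permutation adjusted p = 0.177), and without the 2 farthest rabbits, 13 and 21, r was 0.71. With a different reference gene for each, control r was 0.24 (exact permutation adjusted p = 0.538) and rho was 0.04 (exact permutation adjusted p = 0.922). ACTC1 had r = -0.53 with TAGLN (exact permutation adjusted p = 0.233) and r = -0.16 with ACTA2 (exact permutation adjusted p = 0.685) over the 9 control rabbits, with rho of -0.57 and -0.43. Its relations in the atherosclerotic group were not read because 7 of 9 wells were at the ceiling.

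The SD of TAGLN and of ACTA2 among rabbits was larger in the atherosclerotic group, by an amount that did not hold up to correction over all assays. The SD of TAGLN went from 0.25 to 1.06 and that of ACTA2 from 0.31 to 1.64, where the median SD over all assays was 0.71 in control and 0.79 in atherosclerotic rabbits. ACTC1 had an SD of 0.92 in control and 0.86 in atherosclerotic rabbits. Only 2 of its 9 atherosclerotic wells were below 35 cycles, so neither this SD nor its test below measures the spread of the gene. The exact permutation test of deviations from the group median gave p = 0.00975 for TAGLN, p = 0.0287 for ACTA2 and p = 0.525 for ACTC1 (n = 9 each). After adjustment over the 86 assays these were 0.210, 0.310 and 0.881, and 0% of the assays passed.

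The assays whose levels over the 18 rabbits were most like the mean of the 3 contractile genes were FGF2 (r = 0.96), ITGA1 (0.96), ITGB1 (0.95), EGFR (0.94) and ITGAV (0.93). FGF2 is basic fibroblast growth factor, EGFR is the receptor for epidermal growth factor, and ITGA1, ITGB1 and ITGAV are integrin subunits, ITGB1 being the partner that ITGA1 needs to bind collagen. These values are a description over 63 assays with a Ct below 35 in every rabbit, their median r was 0.13, and they include the difference between the groups. ACTC1, which is part of the mean, was itself below 35 cycles in only 8 control and 2 atherosclerotic rabbits. In its other wells it carries only the reference level. Each of the 5 genes was lower in the atherosclerotic group, FGF2 by a log2 difference of -2.31 (SE 0.33), EGFR of -2.08 (SE 0.25), ITGA1 of -1.91 (SE 0.34), ITGB1 of -1.28 (SE 0.24) and ITGAV of -1.19 (SE 0.26), with limma adjusted p from 5.46e-07 to 0.000479. ITGB1 and ITGAV each lost this call under 1 of the 10 reference levels (highest limma adjusted p 0.125 and 0.198). Because the ranking included the difference between the groups, a fall in these genes followed in part from how they were picked. Among atherosclerotic rabbits alone, r with TAGLN was 0.92 for FGF2, 0.89 for ITGA1, 0.87 for ITGB1, 0.81 for EGFR and 0.96 for ITGAV. The median over the 63 assays was 0.50, and 6 of the 63 were above 0.9. These rabbits are among the 18 on which the genes were picked, so the values describe them and no more. With no shared reference well these values were between 0.54 and 0.72. Among control rabbits r with TAGLN was 0.52, 0.83, 0.39, 0.62 and 0.17 for the same genes with shared references, and with none shared it was 0.23 for FGF2, 0.60 for ITGA1, 0.12 for ITGB1, 0.40 for EGFR and -0.20 for ITGAV. The difference between the groups was not tested. The most opposite patterns were those of TIAM1, an activator of Rac (r = -0.89, log2 difference 4.89), LDHA, lactate dehydrogenase A (r = -0.88, log2 difference 2.20), and GRB2, an adaptor of receptor tyrosine kinases (r = -0.88, log2 difference 1.10).

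Transforming growth factor beta promotes contractile gene expression in smooth muscle. Of the 5 genes of this family on the array, 3 were lower (60%, beside 27.9% of all assays), 0 were higher (beside 33.7%) and the median difference was -1.14, beside 0.045 over all assays. TGFB3, one of the ligands, fell by 2.48 on the log2 scale (limma adjusted p = 2.8e-06). CTGF, a matricellular protein induced by the pathway, differed by -1.57 and INHBA, the subunit of activin A, by -1.14, and both passed in limma. TGFB1 differed by 0.50 (limma adjusted p = 0.083) and TGFBR3, the coreceptor betaglycan, by 0.31, and neither passed. Over the alternative processing settings between 1, with ACTB alone, and 3 of the 5 were lower and 0 or 1 higher, TGFB1 being called under 4 of the 10 reference levels. TGFB3 was lower under all 10.

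Growth factors such as platelet-derived growth factor drive smooth muscle cells to migrate and divide. Of 7 growth factors and receptors in the list used (PDGFA, PDGFB, FGF2, EGF, EGFR, HBEGF and IGF1), 2 were higher (28.6%, beside 33.7% of all assays) and 3 lower (42.9%, beside 27.9%), with a median of -0.50 beside 0.045. PDGFB, a chain of platelet-derived growth factor, was higher by 4.30 and IGF1, insulin-like growth factor I, by 2.16. FGF2 and EGFR were lower, as was PDGFA, with a difference of -1.20. These named genes other than PDGFA kept their call under each of the 10 reference levels, while the number of lower genes ran from 2 to 5 over the alternative settings. EGF was below the ceiling in 1 control rabbit and 0 atherosclerotic rabbits, so its value carries little but the reference level.

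Adhesion to the matrix links the actin filaments to the surroundings of the cell. Of the 12 genes of adhesion and its signalling kept in the list, 4 were higher (33.3%, beside 33.7% of all assays) and 6 lower (50%, beside 27.9%), with a median of -0.56 beside 0.045. Over the alternative settings the lower ones numbered from 2 to 8 and the higher ones from 2 to 4. ITGB6, counted among the 12, was below the ceiling in 0 rabbits of either group and its value is not a measurement of the gene. The largest falls were in ITGA1, ITGB5 (-1.87) and ITGA5 (-1.57), and ITGA5, the fibronectin receptor subunit, lost its call with ACTB alone. The largest rises were in TIAM1, in ITGA4 (3.74), an integrin subunit of leukocytes, and in ITGA6 (1.76), a subunit of laminin receptors, which lost its call with GAPDH alone. Of 9 matrix genes, 3 were higher and 2 lower, with a median of -0.38, and these shares of 33.3% and 22.2% lay near the 33.7% and 27.9% of all assays. COL5A3 (2.74), VTN, vitronectin (1.68), and COL1A2, a chain of type I collagen (1.28), were higher. PLOD2, a lysyl hydroxylase that modifies collagen (-1.36), and COL5A1 (-0.83) were lower. Over the alternative settings the number of lower matrix genes ran from 0 to 5 and that of higher ones from 1 to 4.

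**Figure D3:**
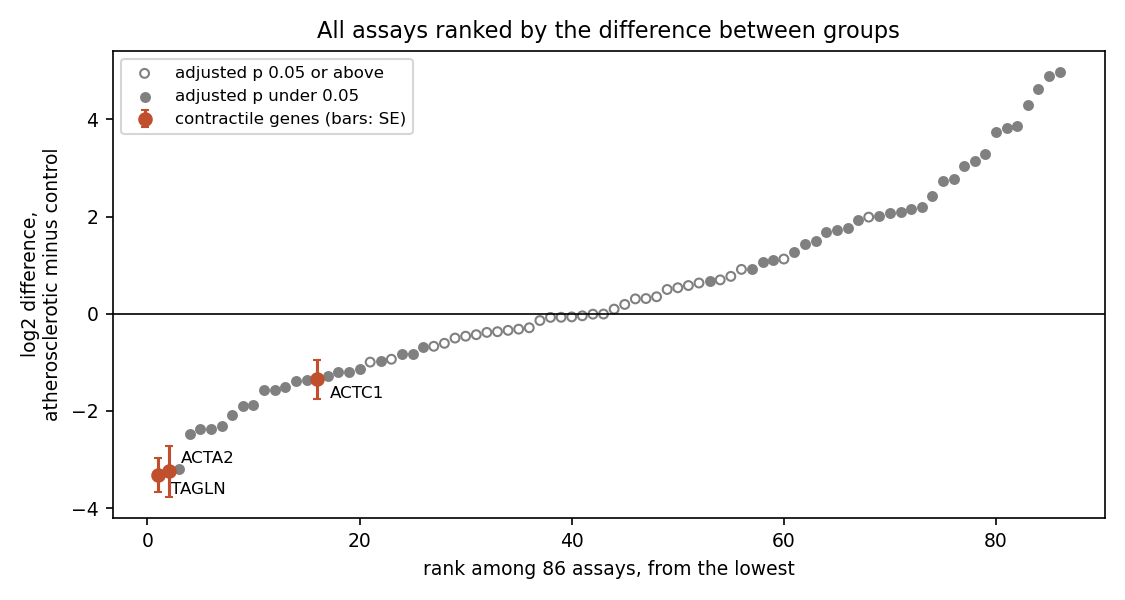
Log2 difference between atherosclerotic and control rabbits for all 86 assays, ranked from lowest to highest (filled where the limma adjusted p was under 0.05), with the 3 contractile genes in colour and their SE as bars. With wells held at 35 cycles TAGLN (-3.32) and ACTA2 (-3.24) are the lowest and ACTC1 (-1.35) ranks 16, while the next lowest, PLG (-3.20), and ACTC1 rest on wells at that ceiling.

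Of 7 macrophage markers on the array, 5 were higher in the atherosclerotic group (71.4%, beside 33.7% of all assays) and 0 lower. Those higher were TLR4 (4.98), MMP9 (3.87), IL10 (3.83), CTSK (2.42) and TNF (2.01). Their order is not fixed, because MMP9 was below the ceiling in only 3 control rabbits, IL10 in 7 and TNF in none. IL1B (0.91, limma adjusted p = 0.395) and IL1A did not pass, and IL1A was below the ceiling in no control rabbit and in 2 atherosclerotic ones. With Ct as deposited IL1A passed as well, at 1.86 (limma adjusted p = 0.0314), and TNF stood at 4.75. The summed linear level of the list ran from 0.585 to 1.33 in control and from 2.63 to 7.09 in atherosclerotic rabbits, without overlap. This sum is mostly CTSK, whose log2 level ran from -0.81 to 0.40 in control and from 1.28 to 2.77 in atherosclerotic rabbits, and with unknown primer efficiencies it weighs the genes unequally. That of the 3 contractile genes ran from 27.4 to 49.3 and from 0.915 to 20.4, without overlap, rabbit 20 being the highest of the atherosclerotic group. Of 4 T cell markers 1 was higher (CD40LG, 1.45, called under 7 of the 10 reference levels) and 1 lower (IL2, -2.38, called under all 10), or 25% each way beside 33.7% and 27.9% of all assays, with summed levels of 0.0964 to 0.175 in control and 0.0601 to 0.413 in atherosclerotic rabbits. Of 2 fibroblast markers 1, COL1A2, was higher (50%, beside 33.7% of all assays, and called under 8 of the 10 reference levels), with sums of 0.640 to 3.55 and 1.14 to 8.15. The T cell sum is mostly IFNG, interferon gamma, which did not pass (-0.43, limma adjusted p = 0.246). On average the larger part of the fibroblast sum is DCN, decorin, which did not pass either (0.63, limma adjusted p = 0.251). None of the endothelial markers looked for was on the array. The part of cell makeup in the fall of the contractile genes was not tested.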

How the data were processed

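The authors isolated RNA with TRIzol, made cDNA with the RT2 First Strand Kit and read the wound healing array on a Mx3000P instrument over 40 cycles. Raw Ct values per well were deposited, and the authors also deposited, from GeneGlobe, the ratio 2 to the power of minus deltaCt, relative to ACTA2, ACTB, GAPDH, LDHA and LOC100346936. A further deposited table holds only the authors' own comparison of the groups and was not used. The custom array was not analysed here.

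Levels were recomputed from Ct against the mean of 3 reference genes. The 86 other assays were compared by limma (lmFit and eBayes) without covariates, with Benjamini-Hochberg adjustment over the 86 and a threshold of 0.05. Ratios within rabbits, spread and correlations used exact two-sided permutation tests. The confidence intervals of ratios came from limma. Ratios were adjusted over the 88 assays set against the same gene. Cell type markers and gene lists are those on the array among the symbols looked for. Genes named are the members, the reference genes and LDHA, the 5 most like and 3 most opposite patterns, and at most 3 called genes per list and direction; PLG, F3, FGA, CSF3, IL1B, TGFB1, TGFBR3, EGF, HBEGF, ITGB6, the macrophage genes CTSK and TNF, IL1A and the T cell and fibroblast markers were named after their values were seen. Some genes of the adhesion list are not reported here and were taken out of it. The members and lists were chosen with earlier results of these data known. Alternatives were 9 other reference levels, no ceiling, keeping only assays with a Ct below 35 in at least 5 rabbits of 1 group, exact tests, array weights, linear levels and leaving out each rabbit. The limma and exact steps were tested on simulated data.

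The labels name no plate or batch, and 1 well per gene and rabbit limits precision, since well error and differences between rabbits cannot be told apart. Of the 3 members, RefSeq names in assembly mOryCun1.1 matched ACTA2 and TAGLN by accession, and ACTC1 is named as in the files. The tools were limma 3.58.1 in R 4.3.3, and scipy 1.17.1, numpy 2.4.6, pandas 2.3.3 and matplotlib 3.10.9 in Python 3.11.15.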

Additional observations from a re-analysis of the deposited data

Results flagged for a closer look

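Of 20 sets of 9 values (levels, ratios and raw Ct of the members and references in each group), 7 held a value far from the rest of its set by Dixon's test, where chance gives about 1 in 20. The sets share rabbits and wells, so the 7 are not separate departures. All came from rabbits 3, 14 and 20. Control rabbit 3 had a late mean reference Ct of 24.73 against 22.33 to 23.07 in the other controls, with a late raw Ct for ACTA2 (20.78 against 18.28 to 19.10) and for TAGLN (20.44 against 18.29 to 18.72). Its levels of both genes relative to the references, 3.95 and 4.29, were within the control range.

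Atherosclerotic rabbit 20 had an early mean reference Ct of 20.38 against 22.58 to 23.26 in the others, an early raw ACTA2 Ct of 16.25 against 21.07 to 24.56, and a log2 ratio of ACTA2 to TAGLN of 2.58 against -1.0 to -0.04. The ratio uses no reference gene, and each of its terms is 1 well. Atherosclerotic rabbit 14 had an ACTC1 level of -9.61, where the others lay between -12.42 and -11.49, and it also had the highest TAGLN level of its group, 2.33.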

How the results depend on the processing

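No paired analysis was possible because the groups share no rabbit numbers. The differences of TAGLN and ACTA2 kept their direction and stayed past the threshold under every alternative run, from -4.10 to -2.61 and from -4.02 to -2.53. Leaving out each rabbit gave -3.49 to -3.09 for TAGLN, -3.65 to -2.96 for ACTA2 and -1.62 to -1.23 for ACTC1. ACTC1 missed the threshold with ACTB alone (-0.65). The numbers of lower assays, 24 with the 3 reference genes, were 11 with ACTB alone, 43 with GAPDH alone and 38 with the 4 references without ACTA2. Higher against lower assays numbered 29 to 24 with the 3 genes, 41 to 11 with ACTB alone, 20 to 43 with GAPDH alone, 23 to 38 with the 4 references and 33 to 20 with the deposited 5. Of the 33 pathway genes kept in the lists 14 were lower and 9 higher, with 5 lower and 11 higher for ACTB alone and 21 lower and 5 higher for GAPDH alone. With no ceiling the ratios of ACTC1 to TAGLN and to ACTA2 missed the threshold, at 0.53 and 0.46, since late wells then count as measured.

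Leaving out each rabbit, a choice made after seeing the data for the correlations, gave r between TAGLN and ACTA2 of 0.39 to 0.82 in control rabbits, past the threshold only without rabbit 13 (exact permutation adjusted p = 0.0383), and of 0.69 to 0.97 in atherosclerotic rabbits, past it only without rabbit 20. The difference in mean absolute deviation of TAGLN, 0.52 to 0.73, passed without atherosclerotic rabbit 4, 6, 10, 12 or 18, and with none of the others left out. Wells near 35 cycles limit what can be read for ACTC1.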
